A study of Mus musculus with 8 samples.

Results

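The proteasome subunits of the mouse heart were examined in HVCN1 null and WT animals. The members were the protein-coding genes whose symbol starts with Psma, Psmb, Psmc, Psmd or Psme. The rule found 45 genes among the 39056 genes counted, and 44 of them were among the 14796 genes tested. The exception was Psmb11, the catalytic subunit of the thymic proteasome, which had 0 counts in all 8 hearts, where a count of 0 allows up to 3 counts per heart. One match, Psmc3ip, encodes a partner protein of the ATPase Psmc3 and is not a subunit of the complex.

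The hearts came from 4 HVCN1-/- males, called HVCN1 null here, and from 4 wild-type (WT) males on a C57BL/6 background, all aged 3 months, and each heart gave 1 library of poly-A RNA. HVCN1 is a voltage-gated proton channel, its deletion was not limited to a cell type by the labels, and the sources name no treatment for either group. Null hearts are numbered 1 to 4 and WT hearts 5 to 8. The labels do not state litters, so the p-values measure the spread between these animals and their libraries.

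Libraries held 25851255 to 38874640 counts assigned to genes, of which mitochondrially encoded genes took 23.7% to 30.2%. Levels are given in CPM, counts scaled to the size of each library after TMM scaling. Hvcn1 (chr5:122206804-122242297) had 0.180, 0.161, 0.0380 and 0.0848 CPM in null hearts 1 to 4, and 2.58, 1.51, 2.62 and 2.30 CPM in WT hearts 5 to 8. Its log2 fold change was -4.20 (SE 0.38, adjusted p = 3.63e-04, edgeR's quasi-likelihood test), which matched the labels. Ventricular cardiomyocyte markers were abundant in every heart. Atrial markers summed to over 1000 CPM in hearts 2, 3, 5 and 7 and to 84.8 to 312 CPM in the others, so both groups held hearts with more and with less atrial RNA.

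The proteasome is the protease that degrades proteins tagged with ubiquitin in the nucleus and cytosol. Its 20S core is a barrel of stacked rings, in which the outer rings of alpha subunits (Psma genes) gate the chamber and the inner rings of beta subunits (Psmb genes) carry the active sites. Psmb5 carries the chymotrypsin-like site, Psmb6 the caspase-like site and Psmb7 the trypsin-like site. In immune cells, and in other cells under interferon gamma, the immunoproteasome subunits Psmb8, Psmb9 and Psmb10 take the places of Psmb5, Psmb6 and Psmb7 and favour peptides that bind MHC class I. The 19S cap holds the ATPases (Psmc genes), which unfold the substrate, and the subunits that bind and remove ubiquitin (Psmd genes). The Psme genes encode other activators: Psme1 and Psme2 form PA28 alpha-beta, Psme3 forms PA28 gamma, and Psme4 is PA200. In heart muscle, the proteasome clears damaged and misfolded proteins.

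The sequence before the start is shown for 6 of these genes because the catalytic pairs and Psme1 are the members that the comparisons turn on. Psmb7 had no sequence window and is not shown. Each sequence is the 150 bases before the RefSeq transcription start on GRCm38.p6, written 5′ to 3′ on the gene's own strand. The gene positions given below are GENCODE spans, which can begin before the RefSeq start. The stretches of Psmb8, Psmb9 and Psme1 lie inside these spans, and those of Psmb5 and Psmb10 overlap them in part. Capitals mark a match to TGACNNNGC, the core of the antioxidant response element, in Psmb5 and Psmb6, or to TTCNNNGAA, the GAS element, in Psmb8.
Psmb5, chr14:54617996-54618145, minus strand: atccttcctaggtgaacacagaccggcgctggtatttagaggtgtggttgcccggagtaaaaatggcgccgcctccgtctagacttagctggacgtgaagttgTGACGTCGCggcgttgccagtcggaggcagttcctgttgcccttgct
Psmb6, chr11:70525207-70525356, plus strand: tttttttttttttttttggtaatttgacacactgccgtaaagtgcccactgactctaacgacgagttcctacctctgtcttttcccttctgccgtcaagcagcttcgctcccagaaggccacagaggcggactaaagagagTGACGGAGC
Psmb8, chr17:34198045-34198194, plus strand: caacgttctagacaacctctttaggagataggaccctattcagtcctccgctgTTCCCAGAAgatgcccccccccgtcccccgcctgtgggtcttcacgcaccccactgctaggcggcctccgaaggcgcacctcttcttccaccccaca
Psmb9, chr17:34187331-34187480, minus strand: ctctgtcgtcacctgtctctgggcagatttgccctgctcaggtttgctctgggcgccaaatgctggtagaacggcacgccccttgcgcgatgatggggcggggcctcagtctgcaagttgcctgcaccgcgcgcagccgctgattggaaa
Psmb10, chr8:105938393-105938542, minus strand: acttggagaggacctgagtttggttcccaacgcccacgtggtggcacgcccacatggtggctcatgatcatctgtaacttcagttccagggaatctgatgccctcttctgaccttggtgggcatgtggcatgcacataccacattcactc
Psme1, chr14:55578344-55578493, plus strand: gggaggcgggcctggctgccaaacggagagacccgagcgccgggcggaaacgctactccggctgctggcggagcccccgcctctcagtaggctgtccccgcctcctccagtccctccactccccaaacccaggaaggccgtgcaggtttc

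The antioxidant response element is bound by the transcription factors Nfe2l1 and Nfe2l2, and Nfe2l1 is known to raise the expression of proteasome genes when the protease is inhibited. The GAS element and the ISRE are bound by factors that act downstream of interferons. Both strands were searched in the 300 bases from 250 before to 50 after each start. The windows were found for 38 of the 45 members. Psma8, Psmb1, Psmb2, Psmb7, Psmc3, Psmd3 and Psmd7 had none and were not searched. TGACNNNGC was present in 6 of the 38 (15.8%, Psmb5, Psmb6, Psmc6, Psmd12, Psmd9 and Psme4), beside 14.0% of 27025 genes with a window. TTCNNNGAA was present in 2 (5.26%, Psmb8 and Psmd2), beside 9.55% of genes. The core of the ISRE, written GAAA, then 2 bases of any kind, then GAAA, was present in 4 (10.5%, Psmb3, Psmd4, Psmd9 and Psme1), beside 3.99% of genes, and the Psme1 match begins 10 bases after the start, outside the printed stretch. No 2 of these matches overlapped.

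No proteasome gene passed the test between HVCN1 null and WT hearts. Of all genes tested, 1.14% (169 of 14796) passed an adjusted p under 0.05 in edgeR's quasi-likelihood test, 110 (0.743%) higher and 59 (0.399%) lower in null hearts. Of the 44 proteasome genes tested, 0 passed in either direction. DESeq2 called 0 of the 44 beside 3.15% of all genes, edgeR's exact test 0 beside 2.48% and limma voom 0 beside 0.994%. At an unadjusted p under 0.05, 1 of the 44 (2.27%), Psme1, passed the quasi-likelihood test, beside 11.0% of all genes. The CPM of the groups overlapped for each of the 44, while 7.06% of all genes had groups that did not overlap.

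The fold changes were small and their errors were narrow. The median absolute log2 fold change was 0.05 over the 44 genes and 0.12 over all genes tested, and the median SE was 0.11 and 0.14. For 36 of the 44 (81.8%) the log2 fold change was under 0.1 in size, beside 43.6% of all genes. The 95% interval lay within 0.5 on the log2 scale on both sides of 0 for 39 of the 44 (88.6%), beside 56.5% of all genes. All genes tested were not matched to the members in level, here or in the calls above. These shares therefore do not show a stability particular to the proteasome. The 5 genes with wider limits were Psme1, Psme4, Psmb10, Psmc3ip and Psma8. The log2 fold change was negative for 30 genes and positive for 14, with a median of -0.02 beside -0.01 over all genes tested. Without scaling of the libraries, the median over the 39 tested members other than the immunoproteasome genes, Psmc3ip and Psme2b turned from -0.02 to 0.02. That over all genes turned from -0.01 to 0.03. In bulk hearts, fewer cells of a type and less RNA per cell cannot be told apart.

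**Figure D1:**
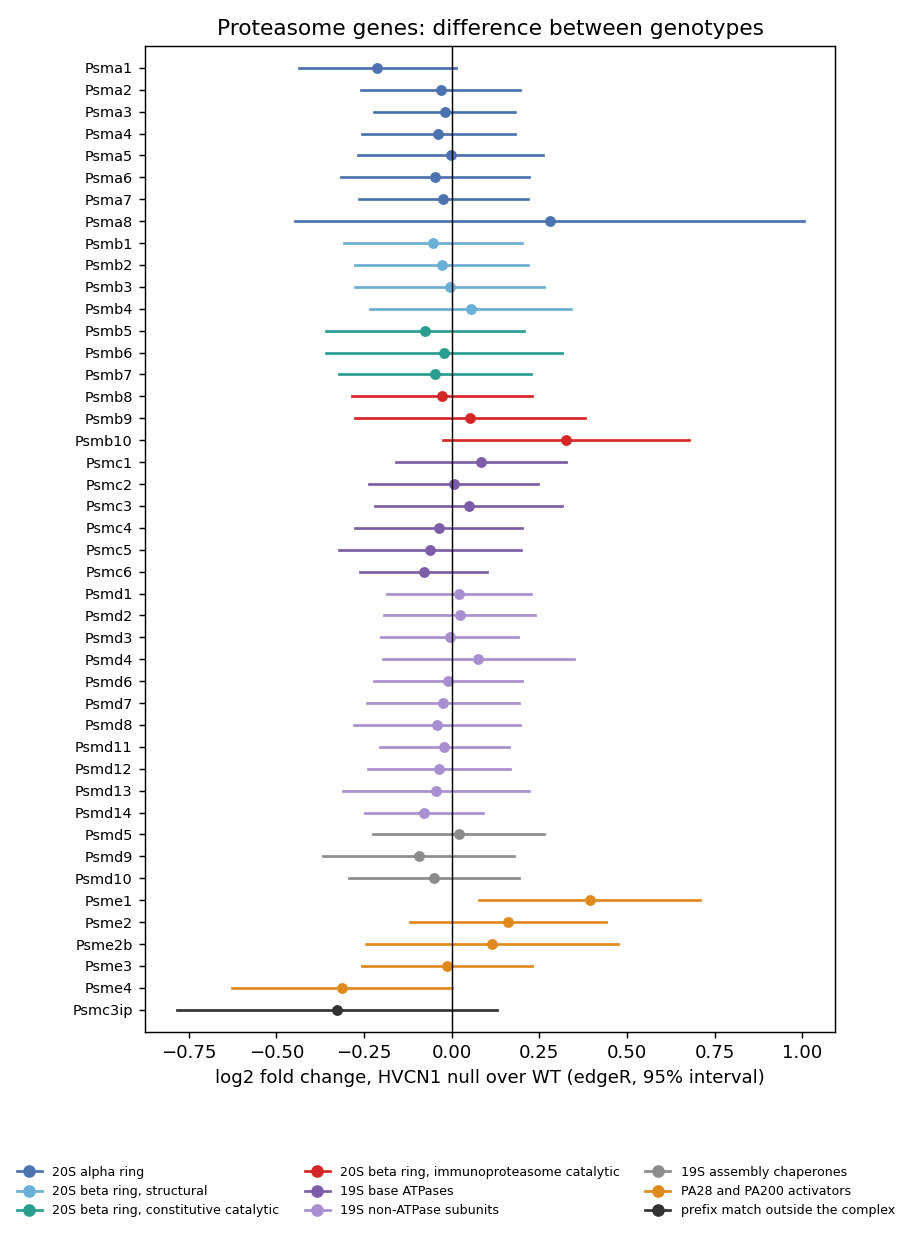
Log2 fold change (HVCN1 null over WT, x axis) of the 44 proteasome genes tested (y axis), with points coloured by role and bars for the 95% interval of edgeR's quasi-likelihood fit over 4 null and 4 WT hearts. Most points lie within 0.1 of 0, Psme1 has the highest value (0.39) and Psmc3ip the lowest (-0.33).

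The catalytic subunits of the constitutive core were well expressed and overlapped between the groups. Psmb5 (ENSMUSG00000022193, chr14:54614119-54618022) had 58.9, 64.6, 81.5 and 78.8 CPM in null hearts 1 to 4, and 82.2, 79.4, 63.6 and 73.6 CPM in WT hearts 5 to 8. Psmb6 (ENSMUSG00000018286, chr11:70525367-70527858) had 81.1, 98.8, 127.0 and 128.6 CPM in the null hearts and 122.0, 115.6, 94.1 and 110.5 CPM in the WT hearts. Psmb7 (ENSMUSG00000026750, chr2:38588036-38644087) had 75.8, 83.7, 94.1 and 105.7 CPM in the null hearts and 92.3, 100.5, 78.4 and 100.2 CPM in the WT hearts. In each of the 3 genes, null heart 1 was the lowest of the null hearts and WT heart 7 the lowest of the WT hearts, and the groups overlapped over most of their range. The log2 fold change was -0.07 (SE 0.13, 95% interval -0.36 to 0.21) for Psmb5, -0.02 (SE 0.15, -0.36 to 0.31) for Psmb6 and -0.05 (SE 0.12, -0.32 to 0.23) for Psmb7. Adjusted p was 0.921, 0.988 and 0.954 in the quasi-likelihood test of edgeR.

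The immunoproteasome subunits were detected in every heart. Psmb8 (ENSMUSG00000024338, chr17:34197721-34201454), the counterpart of Psmb5, had 13.4, 16.1, 15.7 and 15.9 CPM in null hearts 1 to 4, and 18.8, 13.6, 15.2 and 14.6 CPM in WT hearts 5 to 8. The WT hearts held both the highest and nearly the lowest value, so the null hearts sat within the WT range apart from heart 1. The level of Psmb8 was 15.3 ± 1.24 CPM in the null and 15.5 ± 2.25 CPM in the WT group (mean ± SD of 4 hearts each). The log2 fold change was -0.03 (SE 0.12, 95% interval -0.28 to 0.23, edgeR adjusted p = 0.979). Psmb9 (ENSMUSG00000096727, chr17:34181987-34187764), the counterpart of Psmb6, lies 9.96 kb from Psmb8 within the MHC region. It had 7.03, 8.59, 11.0 and 10.1 CPM in the null hearts and 10.0, 7.94, 8.70 and 8.68 CPM in the WT hearts, with null hearts at both ends of the range. Its log2 fold change was 0.05 (SE 0.15, -0.28 to 0.38, edgeR adjusted p = 0.960). Exons of Psmb9 share 212 bases with Tap1 on the opposite strand, and Tap1 had 3689 counts to 2441 of Psmb9. Whether the authors counted by strand is not given in the sources used here. In the same region, 141 kb from Psmb8, the pseudogene H2-Ea-ps had 1411 counts over the null hearts and 0 over the WT hearts, and whether the groups carry the same sequence there was not tested.

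Psmb10 had the highest fold change of the 3 immunoproteasome genes, and it did not pass the test. Psmb10 (ENSMUSG00000031897, chr8:105935735-105938444), the counterpart of Psmb7, had 31.5, 32.4, 48.7 and 41.3 CPM in null hearts 1 to 4, and 36.3, 29.5, 24.7 and 32.0 CPM in WT hearts 5 to 8. Null hearts 3 and 4 were above every WT heart, and null hearts 1 and 2 were within the WT range. The means were 38.5 ± 8.12 and 30.6 ± 4.82 CPM (mean ± SD of 4 hearts each). The log2 fold change was 0.33 (SE 0.16, 95% interval -0.02 to 0.68, unadjusted p = 0.0644, adjusted p = 0.501, edgeR's quasi-likelihood test). Over 17 other fits it ran from 0.19 to 0.43 and the adjusted p from 0.371 to 0.807. The log2 difference was 0.41 within the 4 hearts with atrial markers over 1000 CPM and 0.23 within the other 4, with 2 null and 2 WT hearts each. The median log2 fold change of the 3 immunoproteasome genes was 0.05, with 2 positive and 1 negative.

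**Figure D2:**
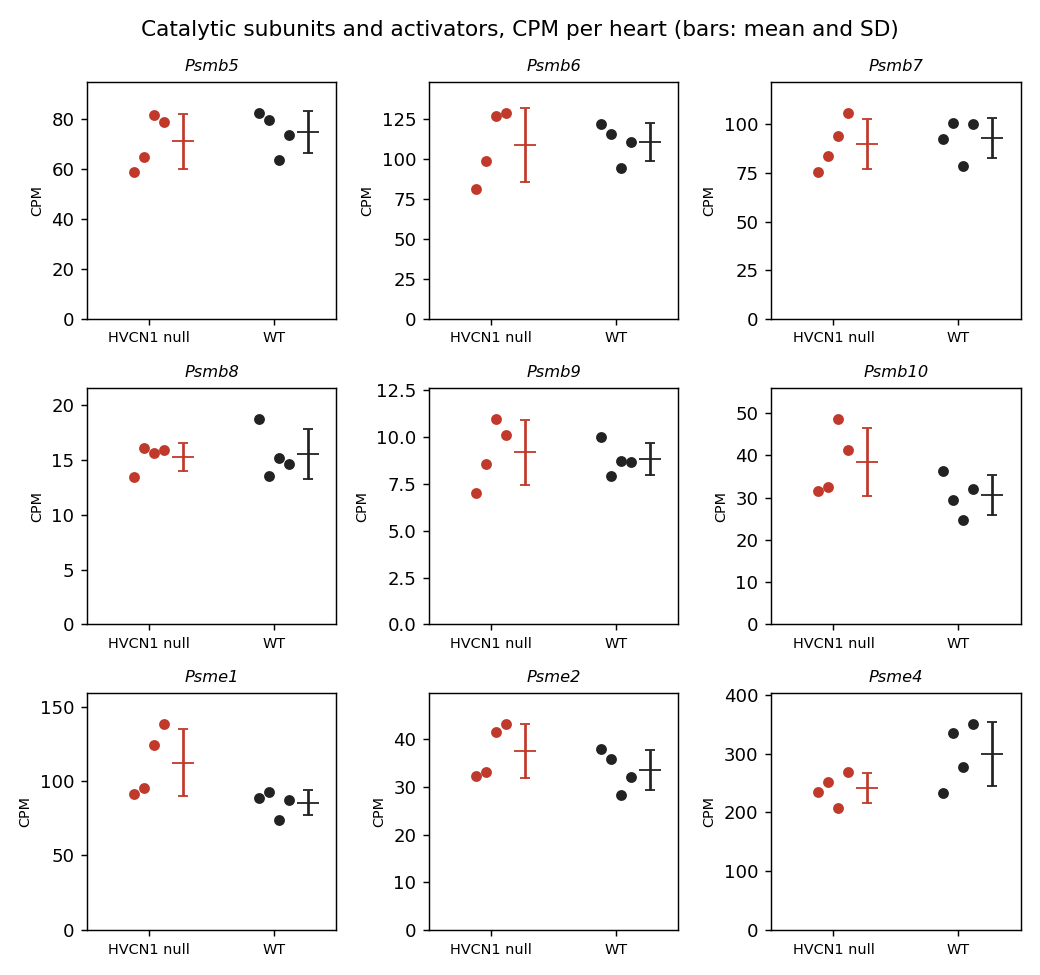
CPM (y axis, from 0) of the catalytic subunits and activators in each HVCN1 null and WT heart, as points, with bars for the mean and SD of 4 hearts. The groups overlap in every panel, with null hearts 3 and 4 above all WT hearts for Psmb10 (48.7 and 41.3 CPM) and Psme1 (124.3 and 138.2 CPM).

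Each immunoproteasome subunit was next set against the constitutive subunit whose place it takes, heart by heart. The ratio of Psmb8 to Psmb5 CPM was 0.228, 0.249, 0.192 and 0.202 in null hearts 1 to 4, against 0.228, 0.171, 0.239 and 0.199 in WT hearts 5 to 8. The ratio of Psmb9 to Psmb6 was 0.0866, 0.0869, 0.0865 and 0.0787 in the null hearts and 0.0822, 0.0687, 0.0925 and 0.0785 in the WT hearts. The groups overlapped in both, and the ends of both ranges were held by WT hearts except for the top of Psmb8 to Psmb5. The log2 ratio differed (null minus WT) by 0.06 for Psmb8 to Psmb5 (exact p = 0.657) and by 0.08 for Psmb9 to Psmb6 (exact p = 0.514), in two-sided exact permutation tests over the 70 assignments of 8 hearts. The ratio of Psmb10 to Psmb7 was 0.416, 0.387, 0.517 and 0.391 in the null hearts and 0.393, 0.294, 0.315 and 0.320 in the WT hearts. WT heart 5 was above null hearts 2 and 4, and the other 3 WT hearts were below all null hearts. This log2 ratio differed by 0.37, with an exact permutation p of 0.0857, the smallest p this design allows being 0.0286. After adjustment over the 3 ratios the exact p-values were 0.657, 0.657 and 0.257, so no ratio passed. Within the 4 hearts with atrial markers over 1000 CPM the difference in Psmb10 to Psmb7 was 0.35, and within the other 4 it was 0.39, with 2 null and 2 WT hearts each. For Psmb8 to Psmb5 the same values were -0.09 and 0.22, and for Psmb9 to Psmb6 they were -0.01 and 0.17.

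**Figure D3:**
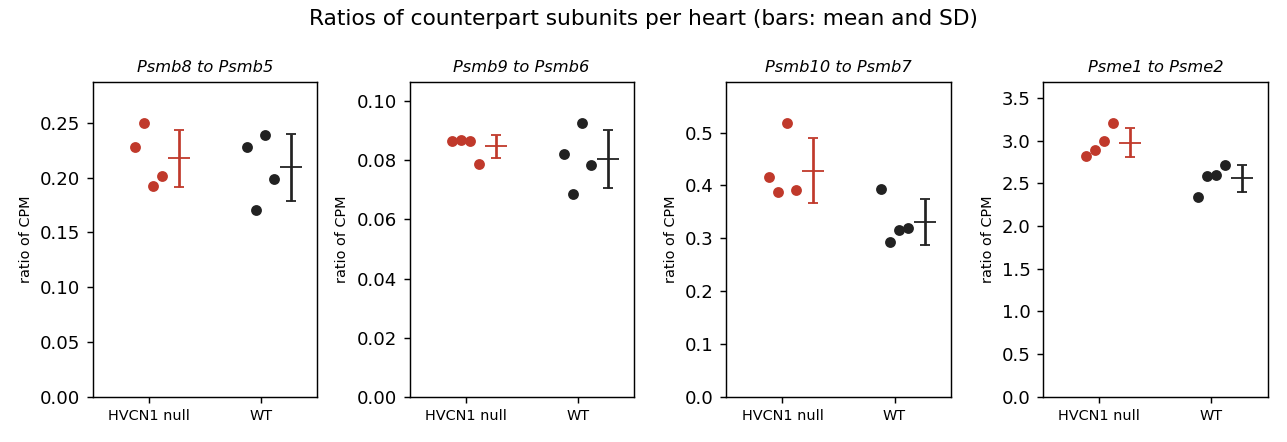
Ratio of CPM (y axis) of Psmb8 to Psmb5, Psmb9 to Psmb6, Psmb10 to Psmb7 and Psme1 to Psme2 in each heart, as points, with bars for the mean and SD of 4 HVCN1 null and 4 WT hearts. The groups overlap in the first 3 ratios, and in Psme1 to Psme2 the null hearts (2.82 to 3.20) sit above the WT hearts (2.34 to 2.72).

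Between genes, levels were compared per length. In WT hearts, Psmb6, Psmb5 and Psmb7 stood at 138.5, 83.1 and 80.04 CPM per kb of principal transcript, and Psmb10, Psmb8 and Psmb9 at 23.4, 9.54 and 6.54. Each immunoproteasome gene was thus below its constitutive counterpart, with Psmb10 the highest of the 3. On this scale the immunoproteasome genes made up 13.9%, 13.3%, 14.2% and 12.5% of the summed level of the 6 catalytic genes in null hearts 1 to 4, against 12.6%, 10.3%, 11.9% and 11.5% in WT hearts 5 to 8. The groups overlapped only between null heart 4 and WT heart 5. Psmb10 held the largest part of the immunoproteasome sum. Its log2 fold change was 0.33, beside -0.03 for Psmb8 and 0.05 for Psmb9, so the share is no separate trait of the 3 genes. Per kb of all exons, the shares were 14.5% to 16.3% in the null hearts and 11.6% to 13.9% in the WT hearts, which did not overlap. In CPM not divided by length they were 17.7% to 19.9% and 14.7% to 18.0%, which did. Whether the groups separate therefore depended on the length used, and no test was made of these shares.

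**Figure D4:**
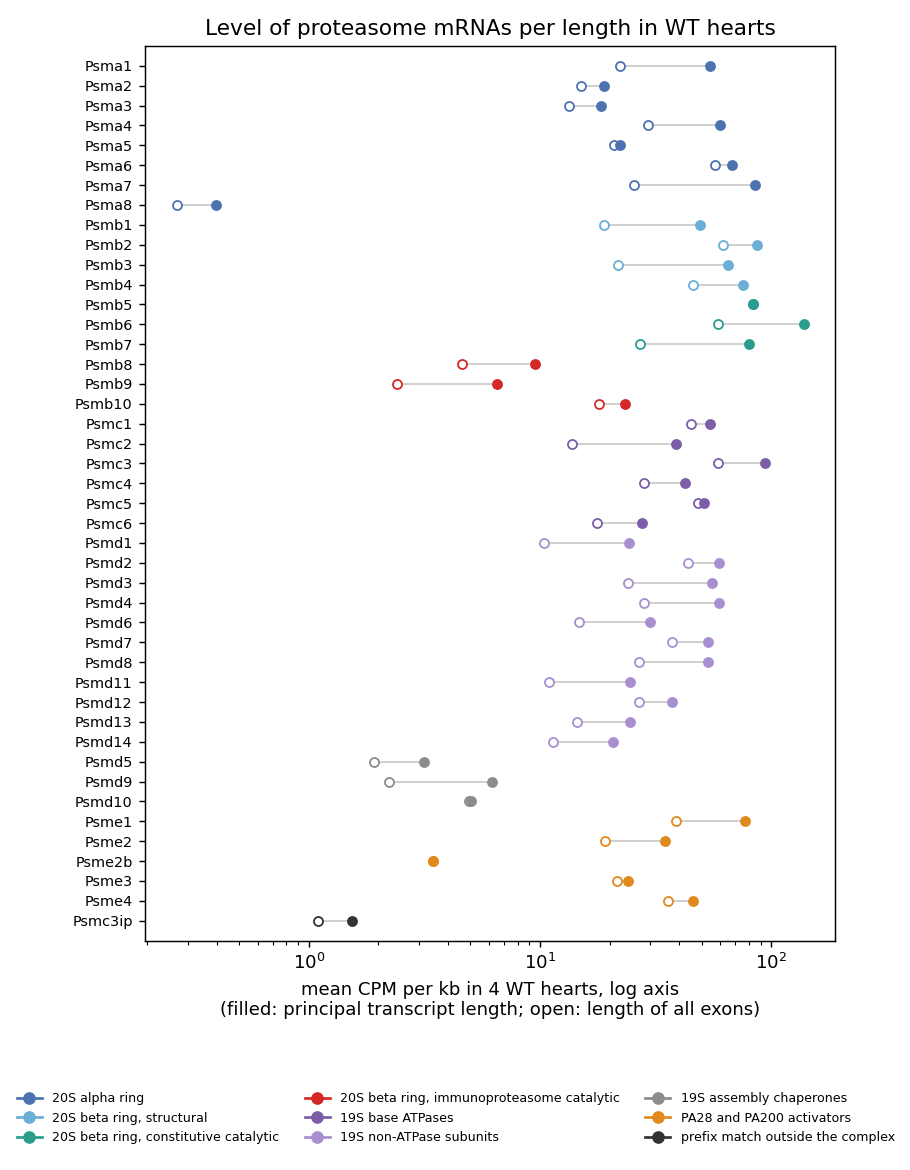
Mean CPM per kb in 4 WT hearts (x axis, log scale) for each proteasome gene with counts (y axis), filled points per kb of principal transcript and open points per kb of all exons, coloured by role. Psmb6 is highest per kb of principal transcript (138.5), Psmb8 and Psmb9 are at 9.54 and 6.54, and the assembly chaperones Psmd9, Psmd10 and Psmd5 are at 3.16 to 6.18.

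The rest of the 20S core also gave small differences. Among the 8 alpha ring genes tested, 7 log2 fold changes were negative and 1 was positive. Psma1 (ENSMUSG00000030751, chr7:114264606-114276118) had the lowest, with 49.8, 57.2, 57.6 and 61.7 CPM in null hearts 1 to 4, and 66.2, 70.9, 56.4 and 68.7 CPM in WT hearts 5 to 8. WT heart 7 was below 3 of the null hearts, and the other WT hearts were above all of them. Its log2 fold change was -0.21 (SE 0.10, 95% interval -0.44 to 0.01, unadjusted p = 0.0618, adjusted p = 0.491, edgeR's quasi-likelihood test). Its log2 difference was -0.09 within the hearts with atrial markers over 1000 CPM and -0.33 within the others. The positive value belonged to Psma8, the alpha subunit of the testis proteasome, which was barely detected at 0.476 to 1.10 CPM over the 8 hearts (log2 fold change 0.28, SE 0.33). The 4 structural beta genes ran from -0.05 for Psmb1 to 0.05 for Psmb4, with SE of 0.11 and 0.13. Genes at the ends of a role's range, in core and cap alike, were chosen after their values were seen.

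In the 19S cap, the 6 ATPase genes gave 3 positive and 3 negative log2 fold changes, from -0.08 (Psmc6, SE 0.08) to 0.08 (Psmc1, SE 0.11). The 11 non-ATPase genes gave 3 positive and 8 negative values. Their ends were Psmd14, the deubiquitinase of the lid, at -0.08 (SE 0.08), and Psmd4, a ubiquitin receptor, at 0.08 (SE 0.12). The 3 assembly chaperones of the cap, Psmd5, Psmd9 and Psmd10, ran from -0.09 for Psmd9 to 0.02 for Psmd5. Psmd9 lies 927 kb from Hvcn1 on chromosome 5, and its level was 15.1 ± 2.21 CPM in the null and 16.1 ± 1.67 CPM in the WT group (SD, n = 4). Over the 34 genes of the core, cap and chaperones without Psma8 and the immunoproteasome genes, every 95% interval lay between -0.44 and 0.35, and the smallest adjusted p in edgeR's quasi-likelihood test was 0.491. The median difference over these genes was 0.06 within the hearts with atrial markers over 1000 CPM and -0.11 within the others, so its sign depended on the hearts compared.

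The activators held the highest and the lowest fold change of the complex, neither of which passed the test. Psme1 (ENSMUSG00000022216, chr14:55578123-55581529), which encodes PA28 alpha, had 91.2, 95.6, 124.3 and 138.2 CPM in null hearts 1 to 4, and 88.8, 92.5, 73.7 and 87.0 CPM in WT hearts 5 to 8. Null hearts 3 and 4 stood well above every WT heart, null heart 2 was just above them, and null heart 1 was just below WT heart 6. The means were 112.4 ± 22.6 and 85.5 ± 8.21 CPM (mean ± SD of 4 hearts each). The log2 fold change was 0.39 (SE 0.14, 95% interval 0.08 to 0.71, unadjusted p = 0.0194, adjusted p = 0.307, edgeR's quasi-likelihood test). Over 17 other fits the value ran from 0.28 to 0.48 and the adjusted p from 0.133 to 0.554, so it passed in none. The log2 difference was 0.43 within the hearts with atrial markers over 1000 CPM and 0.32 within the others. The partner subunit Psme2 (ENSMUSG00000079197, chr14:55587441-55591113), PA28 beta, lies on the opposite strand with 5.91 kb between the ends of the genes. It had 32.4, 33.0, 41.5 and 43.2 CPM in the null hearts and 38.0, 35.8, 28.4 and 32.0 CPM in the WT hearts, with the groups overlapping. Its log2 fold change was 0.16 (SE 0.13, 95% interval -0.12 to 0.44, edgeR adjusted p = 0.770).

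The ratio of Psme1 to Psme2 CPM was 2.82, 2.89, 2.99 and 3.20 in null hearts 1 to 4, against 2.34, 2.58, 2.59 and 2.72 in WT hearts 5 to 8. All null hearts were above all WT hearts, by a mean log2 difference of 0.22. This ratio was chosen after its values were seen and was not tested. Within the hearts with atrial markers over 1000 CPM the difference was 0.26, and within the others 0.18. The retrogene Psme2b is 99.4% identical to Psme2 over 94.9% of its length and had 8.47% as many counts, so how reads were shared between them can move the Psme2 values.

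Psme4 had the lowest fold change among the activators. Psme4 (ENSMUSG00000040850, chr11:30771726-30880361), which encodes PA200, had 235.4, 251.3, 207.9 and 268.1 CPM in null hearts 1 to 4, and 233.1, 335.6, 276.9 and 350.1 CPM in WT hearts 5 to 8. WT heart 5 was within the null range and the other 3 WT hearts were above it. The means were 240.7 ± 25.6 and 298.9 ± 54.1 CPM (mean ± SD of 4 hearts each). The log2 fold change was -0.31 (SE 0.14, 95% interval -0.63 to 0.00, unadjusted p = 0.0516, adjusted p = 0.461, edgeR's quasi-likelihood test). Within the hearts with atrial markers over 1000 CPM, the log2 difference was -0.15, and within the others it was -0.45. Psme3, PA28 gamma, and Psme2b had log2 fold changes of -0.01 (SE 0.11) and 0.12 (SE 0.16).

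Psmc3ip was low, with 1.74, 1.39, 1.60 and 1.64 CPM in null hearts 1 to 4, and 2.58, 1.64, 2.06 and 1.69 CPM in WT hearts 5 to 8. WT heart 5 was the highest, and WT heart 6 was at the level of null heart 4. Its log2 fold change was -0.33 (SE 0.21, edgeR adjusted p = 0.666), and -0.17 without WT heart 5. Its exons share 385 bases with Mlx on the opposite strand, and Mlx had 4041 counts to its 493.

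The subunits of the core and cap moved together from heart to heart, in both genotypes. Each gene's log2 CPM was set against its own mean over the 8 hearts, for the 34 genes of core, cap and chaperones. In null heart 1, 31 of the 34 were below their mean, with a median of -0.20, and in WT heart 7, 32 were below, with a median of -0.19. In null heart 2, 29 were below (median -0.07). In null hearts 3 and 4 and WT hearts 5 and 6, 28, 30, 30 and 32 were above, with medians of 0.11, 0.09, 0.11 and 0.09. WT heart 8 lay near 0, with 23 above (median 0.03). After TMM scaling, the lowest and the highest hearts were thus found in both groups. The medians over all genes tested stayed between -0.01 and 0.02 in all 8 hearts.

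Null heart 1 was the lowest of the 8 hearts for 13 of the 34 genes and WT heart 7 for 16. The fold between the highest and the lowest heart had a median of 1.31 over the 34 genes, from 1.14 for Psmd11 to 1.59 for Psmb6. Hearts 1 and 7 lay within the range of the others in depth and in mitochondrially encoded RNA (32657562 and 35348804 counts, 29.5% and 25.5%). Of their summed cell type markers, those of ventricular cardiomyocytes and of fibroblasts stood apart. The list of 8 ventricular cardiomyocyte markers leaves out the atrial markers. It summed to 54751 CPM in null heart 1 and 56877 CPM in WT heart 7, the lowest of the 8 hearts. In null heart 2, the next lowest, it summed to 58586 CPM. In null hearts 3 and 4 the sum was 64145 and 70492 CPM, and in WT hearts 5, 6 and 8 it was 61165, 69373 and 68910 CPM. Single markers did not all follow the sum, of which Myh6 was the largest part. WT heart 7 was lowest for Myl2, Myl3, Tnnt2 and Mybpc3, null heart 1 for Tnni3 and null heart 2 for Actc1. WT heart 5, where most core genes were above their mean, was lowest for Myh6 and Ryr2. Myh6 was at 24793 CPM there, 25500 CPM in heart 1 and 29100 CPM in heart 7. The 5 fibroblast markers summed to 1385 CPM in heart 1 and 1500 CPM in heart 7, the highest of the 8 hearts, and to 861 to 1232 CPM in the others. Other lists did not set both hearts apart in the same direction. Atrial markers summed to 308 CPM in heart 1 and to 8169 CPM, the highest sum, in heart 7, and adipocyte markers to 2.19 and 57.0 CPM. Endothelial markers (1025 and 821 CPM) and leukocyte markers (297 and 408 CPM) lay within the range of the other hearts. The part of these cell types in the shared shift was not tested. Psme4 was near the core median in null hearts 1 and 2 (-0.18 and -0.08) and slightly below it in null heart 4 (0.01). It was further below it in null heart 3 (-0.35) and WT heart 5 (-0.19). In WT hearts 6, 7 and 8 Psme4 was above the core median (0.34, 0.06 and 0.40). The proteasome genes as a whole took 0.265% to 0.315% of all counts, with null heart 1 the lowest and null heart 3 the highest. This share, which TMM scaling does not alter, was 0.278% in WT heart 7 and in WT heart 8. Their scaling factors were 1.07 and 0.909, the highest and the lowest of the 8 hearts. The low place of WT heart 7 beside WT heart 8 thus depended on the scaling.

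**Figure D5:**
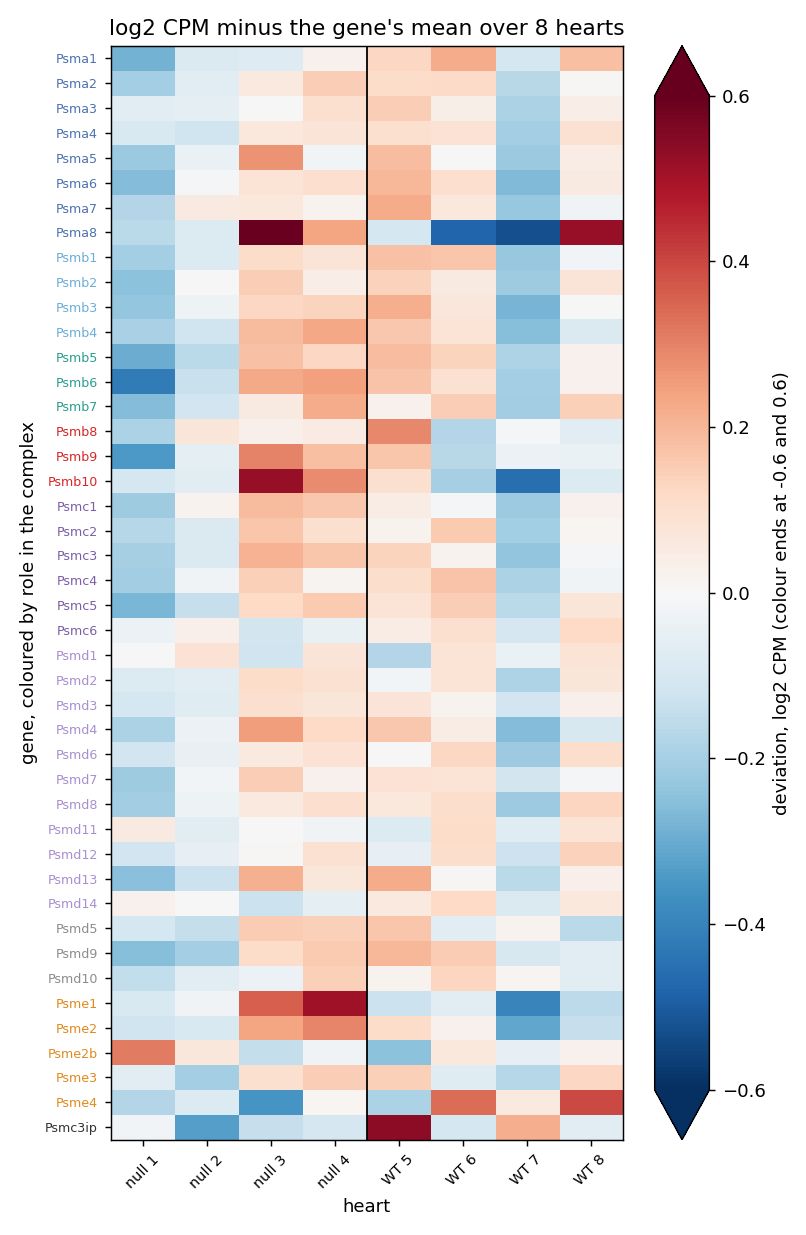
Deviation of log2 CPM from each gene's mean over 8 hearts (colour) for the 44 proteasome genes tested (rows, names coloured by role) in null hearts 1 to 4, and WT hearts 5 to 8 (columns, divided by a line). Null heart 1 and WT heart 7 are low over most rows (core medians -0.20 and -0.19), and the low and high columns occur on both sides of the line.

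Genes that assemble and regulate the proteasome were set beside the subunits. Of 24 such genes, which include the chaperone Pomp, the transcription factors Nfe2l1 and Nfe2l2 and the unfoldase Vcp, 0 passed the adjusted test of edgeR and 1 passed at an unadjusted p under 0.05. Their log2 fold changes were 12 positive and 12 negative, with a median of 0.00. The 3 with the most RNA were Nfe2l1 (517 ± 27.6 CPM in null, 531 ± 83.6 CPM in WT), Vcp (375 ± 11.4 and 366 ± 31.5 CPM) and Ecpas (171 ± 13.1 and 171 ± 20.5 CPM, SD, n = 4 each), with log2 fold changes of -0.04, 0.04 and -0.01. The gene at the unadjusted threshold, named after its value was seen, was Nfe2l2 at 0.23 (SE 0.08, edgeR adjusted p = 0.291).

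Of 12 genes that process and load peptides for MHC class I, 0 passed, 1 passed at an unadjusted p under 0.05, and 10 log2 fold changes were negative (median -0.08). The most abundant were Calr at -0.18, B2m at -0.04 and Canx at -0.09. Of 20 interferon response genes, 0 passed and 2 had an unadjusted p under 0.05 in edgeR's test. Of these, 15 values were negative, the median was -0.17, and the summed level was 254.8 to 281.1 CPM in null hearts and 274.9 to 316.3 CPM in WT hearts. Interferon gamma is also known to induce Psmb8, Psmb9, Psmb10, Psme1 and Psme2, whose log2 fold changes lay between -0.03 and 0.39.

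The other cell types that a whole heart holds were checked by their markers. Of 17 leukocyte markers, 0 passed edgeR's adjusted test and 6 passed at an unadjusted p under 0.05, 12 values were negative (median -0.31), and the summed level was 282.0 to 328.4 CPM in null and 317.4 to 479.9 CPM in WT hearts. Erythroid markers summed to 1290 to 8379 CPM in null and 3010 to 15207 CPM in WT hearts, with 5 of 5 values negative, 1 at an unadjusted p under 0.05 and 0 past the adjusted test of edgeR. Of the ventricular cardiomyocyte (8), endothelial (5), fibroblast (5), atrial (4) and adipocyte (3) markers tested, 0 passed, with medians of -0.04, -0.09, -0.16, -0.44 and -0.77. Among them, 1 ventricular cardiomyocyte marker had an unadjusted p under 0.05 in edgeR's test. No marker listed was at 0 in every heart, and Lep, Retn and Bmp10 had counts but were not tested. The part of these cell types in the values of Psmb8, Psmb9, Psmb10 and Psme1 was not tested.

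Pseudogene copies took few of the counted reads. Of the proteasome genes, 7 had a pseudogene copy at 95% identity or more over at least 80% of the copy. The copy with the most reads beside its gene was Gm3375, with 2.26% of the counts of Psmb5, and Gm13835, identical to its stretch of Psma3, had 1.92%. How reads that match a gene and its copy alike were counted is not given, so these values do not bound their effect.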

How the data were processed

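Poly-A RNA of 4 HVCN1 null and 4 WT hearts was sequenced in 50-base paired reads, aligned by the authors with STAR and counted per gene with featureCounts. The table they deposited holds whole counts for each gene in each heart, not normalized. The submitters' processing notes name mm10 and GRCm38. The paper's methods name a human genome, while the identifiers are mouse, and 38872 of 39056 (99.5%) matched GENCODE M21 on GRCm38. Tool versions and the strand and multimapping settings are not given in the sources used here.

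Counts were fitted with edgeR 4.0.16 in R 4.3.3 (TMM scaling, filterByExpr, quasi-likelihood test, Benjamini-Hochberg adjustment over 14796 genes, threshold 0.05), with all 8 hearts and no covariate. DESeq2 1.42.0, limma 3.58.1 and edgeR's exact test were alternatives, with other scalings and filters, an atrial score as a covariate, and each heart left out. Ratios were tested by two-sided exact permutation (scipy 1.17.1) and adjusted over 3. Copies were sought with BLAST+ 2.17.0 in annotated transcripts. Principal transcript lengths, values within the atrial split and the Psme1 to Psme2 ratio were added after seeing the data. Values per heart were given for the 6 catalytic genes, Psme1, Psme2, genes past the threshold and the 5 genes with the smallest unadjusted p, and, in other lists, for at most 3 genes with the most RNA. The members and lists were chosen with earlier results of these data known. Depth limits precision: intervals cover the spread between hearts, and the limit from 0 counts covers counting error only. Pseudogenes sharing the prefixes were left out.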

Additional observations from a re-analysis of the deposited data

Results flagged for a closer look

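A lone heart was sought in 96 groups of 4 hearts (each member and ratio in each genotype), where chance marks about 1 in 20. Psma4, an alpha ring subunit, was at 59.5 CPM in WT heart 7, while the other WT hearts were at 72.8 to 73.3 CPM. Psmb8 was at 13.4 CPM in null heart 1, while the other null hearts were at 15.7 to 16.1 CPM. The ratio of Psmb9 to Psmb6 was 0.0787 in null heart 4 and 0.0865 to 0.0869 in the other null hearts. Hearts 1 and 7 were also the hearts with the lowest medians over the core and cap.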

How the results depend on the processing

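No member passed the threshold in any of 17 other fits, and their smallest adjusted p was 0.133. Of 747 member values in those fits, 110 turned sign, in 30 members, all with a log2 fold change of at most 0.0748 in size in the reported fit. Among the members whose fold change is given, the value without library scaling turned to 0.016 for Psmb6, 0.0057 for Psmb8 and 0.027 for Psme3, and with the atrial score to 0.0017 for Psmb7 and 0.013 for Psme3. Leaving out each heart in turn gave -0.13 to 0.0050 for Psmb1, -0.017 to 0.13 for Psmb4, -0.15 to 0.0045 for Psmb5, -0.11 to 0.096 for Psmb6, -0.14 to 0.025 for Psmb7, -0.086 to 0.086 for Psmb8, -0.043 to 0.16 for Psmb9, -0.027 to 0.092 for Psmd5 and -0.068 to 0.048 for Psme3. The log2 difference in Psmb8 to Psmb5 ran from -0.031 to 0.13, negative without null heart 2 or WT heart 6, and that in Psmb9 to Psmb6 from 0.0072 without WT heart 6 to 0.15 without WT heart 7 (exact permutation p from 0.114 to 1). The median over the immunoproteasome genes was -0.04 without null heart 3. The cause of these turns was not tested. Over all genes, 367 passed with edgeR's exact test and 466 with DESeq2, and 71 (without WT heart 6) to 152 passed with 1 heart left out. With 4 hearts a group, the intervals of Psmb10 and Psme1 reached 0.68 and 0.71. With 1 heart left out, the smallest exact p a ratio can reach is 0.0571. No paired analysis was made because the labels pair no null heart with a WT heart.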
